A study of Mus musculus with 9 samples.

Results

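The interferon response genes of the mouse liver are described here across 9 expression arrays labelled as liver, 1 mouse each. The set is a list of 42 genes that interferons are known to induce or that carry the interferon signal, chosen by symbol. Of these, 39 were measured by at least 1 probe set annotated to a single symbol, out of 18193 genes measured in that way. Each gene was read from the probe set with the highest mean signal, so a value is a linear signal of 1 probe set, and signals are compared between arrays, not between genes. On the log2 scale used for the tests, 36 of the 39 passed a filter on dim probe sets (a signal above the array median on at least 3 of 8 arrays), and Ifit2, Mx1 and Mx2 did not. Isg15 and Tgtp1 were read only by probe sets shared with another gene, and Ifi44 was not analysed here.

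The animals were female MRL +/+ mice, the substrain of the autoimmunity-prone MRL line that lacks the lpr mutation and develops disease late. They were injected repeatedly over 6 weeks into the peritoneum with dichloroacetyl chloride (DCAC) or dichloroacetic anhydride (DCAA), both at 0.2 mmol/kg and dissolved in 100 µl of corn oil. The livers were collected at 11 weeks of age, 24 h after dosing ended. DCAC is a reactive acyl chloride formed from trichloroethene, and DCAA is an anhydride that transfers the same dichloroacetyl group. Controls were given corn oil alone according to the series' design, although the sample labels call them untreated. Each group had 3 mice, 1 array per mouse, so no array is a pool.

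Control 2 is labelled as liver but did not look like the other arrays. Hepatocyte markers (7 genes) summed to a signal of 14993 there, while the other 8 arrays ranged from 243692 to 345598. Kidney tubule markers summed to 123362 there and to between 1276 and 1966 elsewhere. The comparisons below use control 1 and control 3 as the controls (8 arrays), with the result over all 9 arrays given beside them. A further measure moved with the groups: the 3'/5' signal ratio of pyruvate carboxylase, a sign of shortened RNA, was 2.85 to 3.99 on the controls, DCAC 1 and DCAC 2, and 6.43 to 12.8 on DCAC 3 and all of DCAA.

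Type I interferons and interferon gamma bind receptors on almost every cell, and interferon receptors activate the kinases Jak1, Jak2 and Tyk2. The type I and type III interferons act on genes through a complex that holds Stat2 and Irf9 and binds the interferon-stimulated response element (ISRE), while interferon gamma acts mainly through the gamma-activated site (GAS). The induced genes include sensors of viral nucleic acid, enzymes that block viral replication, GTPases that attack the vacuoles of intracellular parasites, and parts of the peptide-loading machinery of MHC class I, and in the liver the Kupffer cells, the resident macrophages, respond strongly.

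Promoters are shown first because ISRE and GAS are the sequences through which these genes are known to respond. In RefSeq promoters of the mouse build GRCm38.p6 (250 bases before to 50 after a gene start), 31 of the 42 members had an entry, with 37 windows. Searched on both strands, the ISRE core (GAAA, any 2 bases, then GAAA) was present in 19 of the 37 windows (51.4%), against 3.44% of all 32851 windows. The GAS letters TTCNNNGAA were present in 12 (32.4%), against 8.3% of all windows, and in 2 member windows the motifs overlap. A match describes letters in the window only. The 150 bases before the start are printed for 5 members with contrasting motif content that recur in the results: the GTPases Irgm2 and Igtp carry both motifs, Ifit1 carries 2 ISRE matches, Rsad2 carries 1 and Irf1 carries a GAS match and no ISRE. Capitals mark the motif matches.
Irgm2 chr11:58214827-58214976 (+ strand): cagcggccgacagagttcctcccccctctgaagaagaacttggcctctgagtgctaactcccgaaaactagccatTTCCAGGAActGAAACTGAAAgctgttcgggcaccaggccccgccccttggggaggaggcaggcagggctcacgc
Igtp chr11:58199406-58199555 (+ strand): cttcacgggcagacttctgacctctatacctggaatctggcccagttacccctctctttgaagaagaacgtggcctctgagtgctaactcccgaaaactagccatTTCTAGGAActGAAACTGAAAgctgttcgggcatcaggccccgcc
Ifit1 chr19:34640739-34640888 (+ strand): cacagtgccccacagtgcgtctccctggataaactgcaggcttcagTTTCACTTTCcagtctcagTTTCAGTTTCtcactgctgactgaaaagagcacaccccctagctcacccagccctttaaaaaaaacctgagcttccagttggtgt
Rsad2 chr12:26456453-26456602 (- strand): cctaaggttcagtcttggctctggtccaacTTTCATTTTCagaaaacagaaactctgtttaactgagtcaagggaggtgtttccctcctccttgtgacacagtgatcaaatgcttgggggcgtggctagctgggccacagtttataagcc
Irf1 chr11:53769864-53770013 (+ strand): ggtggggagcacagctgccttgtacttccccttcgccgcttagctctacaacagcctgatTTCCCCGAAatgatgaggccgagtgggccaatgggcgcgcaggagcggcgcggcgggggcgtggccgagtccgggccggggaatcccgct
Igtp and Irgm2, which lie close together on chromosome 11, share a run of 38 identical bases within these 150, and in both the GAS match starts 11 bases from the start of the ISRE match.

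Most members stood higher on 1 control liver than on the other control and the treated livers. Control 3 carried the highest signal of the 8 arrays for 25 of the 39 members (64.1%), against 8.90% of all genes. Control 1 carried the highest signal for none of them, against 10.7% of all genes, and each treated array did so for 1 to 3. The shares of all genes with their highest signal on DCAC 1 to 3 were 8.60%, 8.02% and 12.7%, and on DCAA 1 to 3 they were 10.7%, 11.1% and 23.7%. Control 3 lay above control 1 for 34 members (87.2%, against 42.8% of all genes) and at least 1.5-fold above for 23 (59%, against 9.12%). The median member was 0.66 higher on the log2 scale on control 3 than on control 1, against 0 over all genes. Control 1 itself lay within the range of the 6 treated livers for 27 of the 39 (69.2%), near the 71.4% of all genes. This is 1 mouse against the others, so it has no test, and whether the groups differ in how often such a liver occurs cannot be read from it.

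**Figure D1:**
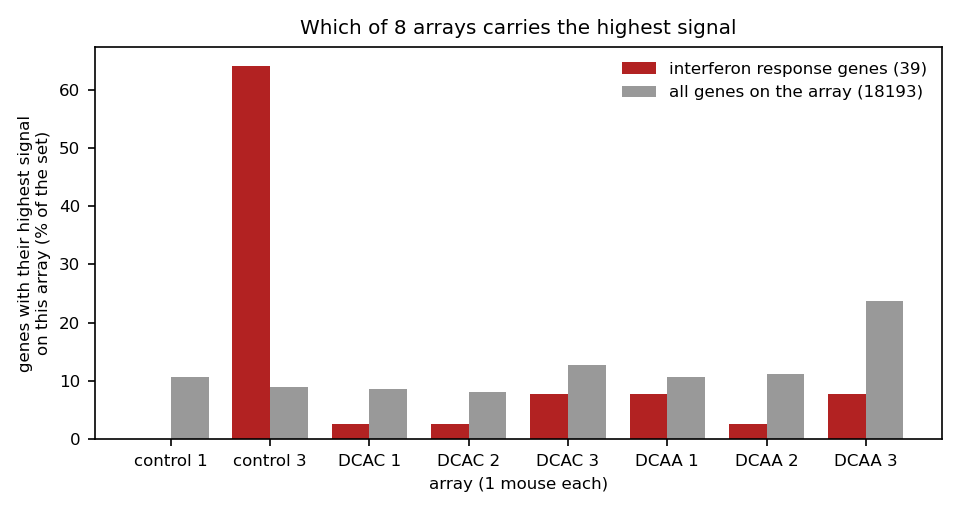
Share of genes (y axis, percent) whose highest signal of the 8 arrays falls on each array (x axis, 1 mouse each), for the 39 measured interferon response genes and for all 18193 genes. Control 3 holds 64.1% of the members and 8.90% of all genes, and control 1 holds none of the members.

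Each role held genes that were highest on control 3. Control 3 was highest for 3 of 5 transcription factors, 2 of 4 nucleic acid sensors, 4 of 8 IFIT and OAS genes, 6 of 8 other antiviral effectors and 5 of 6 interferon-inducible GTPases. It was also highest for Usp18, for 1 of the 2 peptide transporter genes and for 3 of 5 other induced genes. Control 3 over control 1 ranged from 1.76 to 2.58 over the GTPases and from 0.338 to 6.46 over the IFIT and OAS genes. Of 25 further probe sets, which measure 16 of the members a second time, 17 passed the filter, and 7 of those 17 were highest on control 3. The ISRE letters were in 13 of 24 promoter windows of the members highest on control 3 and in 4 of 10 of the other measured members, and the GAS letters in 6 of 24 and 5 of 10.

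**Figure D2:**
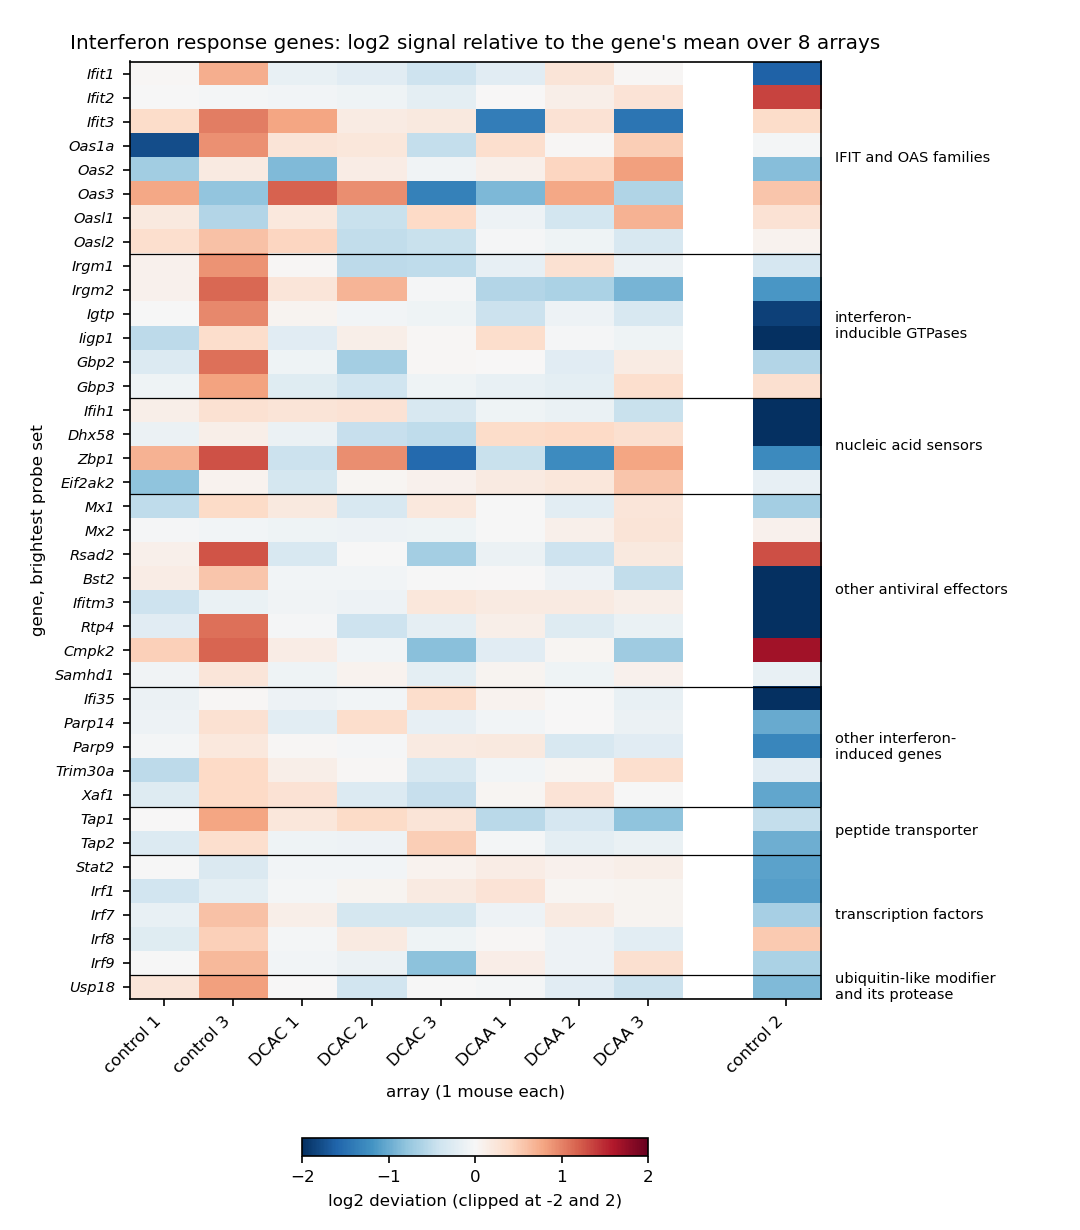
Log2 signal of the 39 measured interferon response genes (rows, grouped by role) on each array (columns, 1 mouse each), as the deviation from the gene's mean over the 8 arrays without control 2; colours are clipped at -2 and 2. Control 3 is red in most rows, and control 2, drawn apart, is the lowest of the 9 arrays for genes such as Iigp1 and Ifitm3.

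Among the transcription factors, Irf7 and Irf9 stood high on control 3 while Stat2 and Irf1 did not. Irf7, which amplifies type I interferon production, had signals of 657.5 on control 1 and 1095 on control 3, 792, 571 and 571 on DCAC 1 to 3 and 674, 826 and 754 on DCAA 1 to 3. Irf9, the DNA-binding partner of Stat2, had 511 on control 1 and 803 on control 3, 495, 476 and 289 on DCAC 1 to 3 and 561, 479.7 and 644 on DCAA 1 to 3. Both were highest on control 3, and control 1 lay inside the treated range.

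Stat2, a signal transducer of the type I response, had signals of 496.5 on control 1 and 409.7 on control 3, 481, 479 and 525 on DCAC 1 to 3 and 553, 530.0 and 539.8 on DCAA 1 to 3. On this probe set control 3 was the lowest of the 8 arrays for Stat2, and the DCAA livers were the highest. A second Stat2 probe set, which also passed the filter, had 229 on control 1 and 294 on control 3. There DCAA 3 was the lowest of the 8 arrays, at 176. Irf1, a factor induced mainly through GAS elements, had 1539 on control 1 and 1737 on control 3, 1952.5, 2081.5 and 2269 on DCAC 1 to 3 and 2407, 2061 and 2075 on DCAA 1 to 3. All 6 treated livers lay above both controls for Irf1. Irf8, a factor of macrophages and dendritic cells, was 1.64 times as high on control 3 as on control 1.

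All 6 GTPases were higher on control 3 than on control 1. Irgm1, a regulator of the IRG family of GTPases, had signals of 1061 on control 1 and 1870.3 on control 3, 1018, 698 and 706 on DCAC 1 to 3 and 892, 1236 and 928 on DCAA 1 to 3. Irgm2, a regulator of the same family, had 1414 on control 1 and 2978 on control 3, 1586, 2136 and 1312 on DCAC 1 to 3 and 890.2, 866.5 and 705 on DCAA 1 to 3. Igtp (Irgm3), the third regulator, had 2732 on control 1 and 5308 on control 3, 2828, 2628 and 2569 on DCAC 1 to 3 and 2030.3, 2545 and 2182 on DCAA 1 to 3. For all 3 regulators control 3 was highest, and for Irgm2 and Igtp every DCAA liver was below every DCAC liver.

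Iigp1, an effector that coats parasite vacuoles, had 6167 on control 1 and 11351 on control 3, 7640.5, 9666 and 9091.5 on DCAC 1 to 3 and 11373.5, 8733 and 8411 on DCAA 1 to 3; here control 1 was lowest, and DCAA 1 reached the level of control 3. The guanylate-binding protein Gbp2 had 223 on control 1, 576 on control 3 and 167.7 to 302.3 on the treated livers, so control 3 was above all of them. Gbp3 had 319, 592 and 257.4 to 428.3 in the same order. The probe set shared by Tgtp1 and its near-identical copy Tgtp2 gave 4504 on control 3, 7.44 times control 1 (605.6), and 523.8 to 876 on the other liver arrays.

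Usp18, the protease that removes Isg15 and damps receptor signalling, had signals of 443 on control 1 and 665 on control 3, 376, 289 and 372 on DCAC 1 to 3 and 365, 320.3 and 279 on DCAA 1 to 3. Every treated liver lay below both controls. The probe set shared by Isg15, the ubiquitin-like modifier, and by Gm9706 gave 355.4 on control 1, 517.2 on control 3 and 353.4 to 697.4 on the treated livers, with no separation.

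The IFIT proteins bind foreign RNA ends, and the OAS enzymes make the messenger that switches on RNase L. Ifit1 had signals of 329 on control 1 and 532 on control 3, 291, 276 and 242 on DCAC 1 to 3 and 276, 385 and 329 on DCAA 1 to 3. Ifit3 had 263 on control 1 and 415 on control 3, 352, 228 and 234 on DCAC 1 to 3 and 78.2, 248 and 74.2 on DCAA 1 to 3. Control 3 was highest for both, and DCAA 1 and DCAA 3 were far below the rest for Ifit3. Oas1a had 93.2 on control 1, 602.5 on control 3 and 230.3 to 448.4 on the treated livers, so control 1 was the outlying control on the low side. Oas3 and Oasl1 ran the other way, at 0.34 and 0.59 times as high on control 3 as on control 1. Oas2 was 1.83 and Oasl2 1.19 times as high on control 3. Ifit2 was at or below the 25th percentile of the array on all 8 arrays.

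The sensors were mixed. Ifih1 (MDA5), a sensor of long double-stranded RNA, had signals of 1667 on control 1 and 1901 on control 3, 1849.9, 1892 and 1234 on DCAC 1 to 3 and 1458.5, 1402 and 1135 on DCAA 1 to 3. The DCAA livers lay below both controls for Ifih1. Dhx58 (LGP2), a regulator of that sensor, had 332 on control 1 and 390.1 on control 3, 333, 262 and 253 on DCAC 1 to 3 and 467.5, 476.5 and 451 on DCAA 1 to 3. Eif2ak2 (PKR), the kinase that stops translation on double-stranded RNA, had 191 on control 1 and 351 on control 3, 262, 341 and 354 on DCAC 1 to 3 and 376, 391 and 489 on DCAA 1 to 3. The DCAA livers lay above both controls and above all DCAC livers for both of these genes. Zbp1, a sensor of left-handed nucleic acid, was scattered within groups, from 49.1 to 276.8 over DCAC and from 35.8 to 250.4 over DCAA.

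Rsad2 (viperin), which makes a chain-terminating nucleotide, had signals of 568 on control 1 and 1273 on control 3, 424, 527 and 332 on DCAC 1 to 3 and 488, 399.5 and 611 on DCAA 1 to 3. Cmpk2, its neighbour and a nucleotide kinase, had 350.1 on control 1 and 567 on control 3, 277, 243 and 141 on DCAC 1 to 3 and 216, 259 and 153 on DCAA 1 to 3. Control 3 was highest for both, and the DCAC livers lay below both controls. Rtp4, a receptor-transporting protein, had 716.3 on control 1, 1812 on control 3 and 630.0 to 914.7 on the treated livers. Bst2 (tetherin), which holds virions at the membrane, had 3382 and 4458 on the controls and 2177 to 3071 on the treated livers, all below both controls. Ifitm3, which blocks viral entry, had 16073 on control 1 and 19569.5 on control 3, 20319, 19889.5 and 24961.5 on DCAC 1 to 3 and 24211, 24238 and 23222 on DCAA 1 to 3. For Ifitm3 the order was opposite, with all 6 treated livers above both controls. Samhd1, a dNTP hydrolase, and Mx1, a dynamin-like antiviral GTPase, were 1.24 and 1.84 times as high on control 3 as on control 1. Mx2, of the same family, lay under the 25th percentile of the array on both controls, so no ratio is given.

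Tap1 and Tap2 form the transporter that carries peptides to MHC class I. Tap1 had signals of 399 on control 1 and 687 on control 3, 464, 514 and 475 on DCAC 1 to 3 and 273, 313 and 228 on DCAA 1 to 3. Tap2 had 873 on control 1 and 1328 on control 3, 986, 976 and 1483 on DCAC 1 to 3 and 1019, 917 and 959 on DCAA 1 to 3. The DCAA livers lay below every other liver of the 8 for Tap1 and inside the range of the rest for Tap2. The last role group is mixed in function: Ifi35 had 2369 on control 1 and 2596 on control 3, 2388, 2460.4 and 3279.8 on DCAC 1 to 3 and 2679.9, 2544 and 2321 on DCAA 1 to 3, with overlapping groups. Parp14 and Parp9, ADP-ribosyltransferase family members, the ubiquitin ligase Trim30a and the apoptosis-related Xaf1 were 1.20 to 1.90 times as high on control 3 as on control 1.

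**Figure D3:**
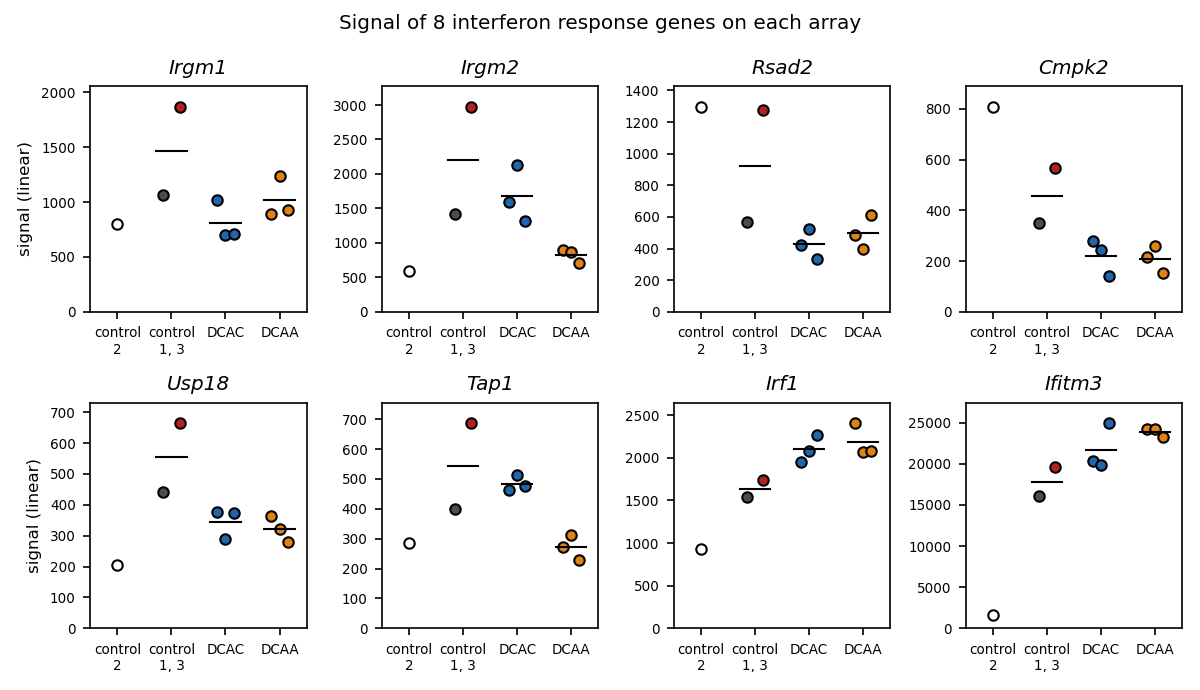
Linear signal (y axis) of 8 interferon response genes on each array, with control 2 apart (open circle), control 1 in grey, control 3 in red, DCAC in blue and DCAA in orange; lines mark the group means, without control 2. Control 3 is the highest of the 8 arrays in every panel except Irf1 and Ifitm3, where all 6 treated livers lie above it.

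Macrophage markers and most NK and cytotoxic cell markers were also highest on control 3, while the markers of other immune cells mostly were not. Of all genes, 8.90% were highest there. All 10 Kupffer cell and macrophage markers were highest on control 3: their summed signal was 32521 there, 9449 on control 1, 9870 to 15307 on DCAC and 13020 to 14349 on DCAA. The scavenger receptor Marco, for example, had 50.6 on control 1 and 1144 on control 3, and Cd5l, a macrophage-secreted protein, had 1689 and 7100.0. None of the 10 was listed at 0. Of the NK and cytotoxic cell markers 5 of 7 were highest on control 3, with sums of 2384 on control 3, 1435 on control 1, 729 to 1071 on DCAC and 945 to 1158 on DCAA. For T cells 1 of 6 markers was highest there, with a sum of 1003 against 597 to 971 on the other 7 arrays, and for hepatocytes 0 of 7. For B cells 0 of 5 markers were highest there, and their sum was lowest there (563, against 663 to 1455 on the other 7 arrays). The plasmacytoid dendritic cell list had 2 of 5, and these 2 are the members Bst2 and Irf7. Its sum was 6538 against 3927 to 4997, of which Bst2 alone gave 4458 on control 3. The markers Siglech, Tcf4 and Spib, which are no members, were not highest there. Neutrophil markers were lower on both controls, with sums of 1593 on control 1 and 1092 on control 3, than on DCAC (2311 to 2634) and DCAA (1650.0 to 3999.8). All livers of either treatment lay above both controls for 4 of the 7 neutrophil genes (57.1%, against 9.79% of all genes with DCAC and 14.0% with DCAA). The smallest adjusted p of these genes in limma was 0.065 with DCAC and 0.052 with DCAA. In summed macrophage signal control 3 lay far above the treated livers and control 1 just below them. By gene, control 1 lay within the range of the treated livers for 6 of the 10 markers. The mean of the 2 controls enters the fitted comparisons with control below. The markers' part in the members' values was not tested, and in whole liver fewer cells of a type and less RNA per cell cannot be told apart.

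**Figure D4:**
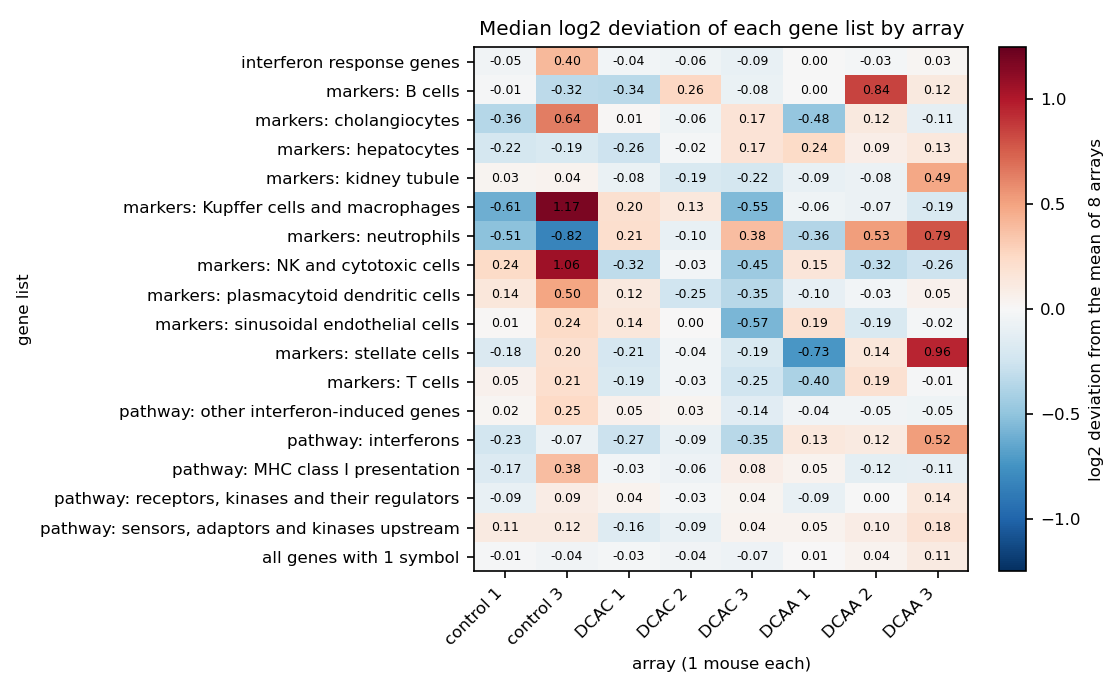
Median log2 deviation of each gene list (rows) from the genes' means over the 8 arrays, on each array (columns, 1 mouse each). On control 3 the interferon response genes stand at 0.40, MHC class I presentation at 0.38, Kupffer cell and macrophage markers at 1.17 and NK and cytotoxic cell markers at 1.06, while all genes stand at -0.041. B cell markers stand at -0.32 and neutrophil markers at -0.82 there.

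Because the controls differed, each treated group was first set against each control alone. Against control 1 the median member differed by 0.0054 for DCAC and 0.086 for DCAA on the log2 scale, beside -0.044 and 0.10 over all genes. Against control 3 the medians were -0.48 and -0.52, beside -0.031 and 0.092. All 3 DCAC livers lay below control 3 for 28 members and below control 1 for 7, against 21.8% and 22.8% of all genes. All 3 DCAA livers lay below control 3 for 27 members and below control 1 for 10, against 21.3% and 22%. The DCAC livers all lay above control 1 for 12 members and above control 3 for 4, against 20.2% and 18.5% of all genes. The DCAA livers all lay above control 1 for 15 members and above control 3 for 6, against 22.9% and 21.8%. These comparisons share treated arrays and have no test with 1 control.

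**Figure D5:**
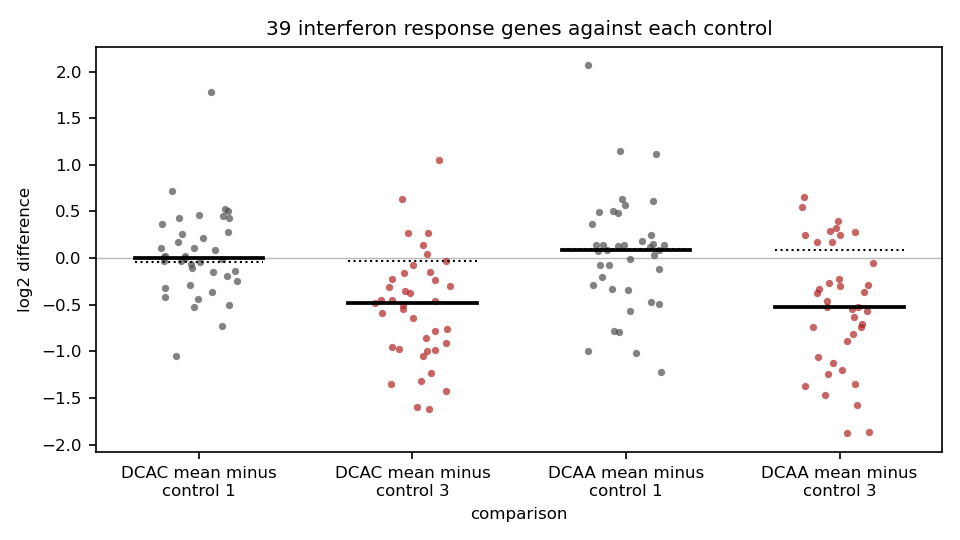
Log2 difference (y axis) of the mean of the DCAC or DCAA livers from control 1 (grey) or control 3 (red) for the 39 measured interferon response genes, 1 point per gene; solid lines are the members' medians and dotted lines the medians of all genes. The medians lie at 0.0054 and 0.086 against control 1 and at -0.48 and -0.52 against control 3.

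No member passed the threshold between DCAC and the 2 liver controls. The limma fit over 24531 probe sets with Benjamini-Hochberg adjustment gave 0 of 36 members at an adjusted p under 0.05, while 0.0326% of all probe sets passed. At an unadjusted p under 0.05 there were 7 members of 36, against 5.02% of probe sets. The median member differed by -0.13 (-0.040 over all genes), and 27 of 39 were below 0 (69.2%, against 54.7% of all genes). All 3 DCAC livers lay below both controls for 7 members (17.9%, against 9.98% of all genes) and above both for 2 (5.13%, against 9.79%). The median member's 95% interval spanned a factor of 1.53 on either side.

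On the log2 scale, the 4 members furthest below both controls were Cmpk2 at -1.07 (SE 0.40, 95% interval -1.93 to -0.21; limma adjusted p = 0.919), Rsad2 at -1.02 (adjusted p = 0.806), Irgm1 at -0.83 (adjusted p = 0.8) and Usp18 at -0.66 (adjusted p = 0.967). Irf9, Ifit1 and Bst2 made up the rest of the 7, with Irf9 at -0.65. The members above were Irf1 at 0.36 (SE 0.16, 95% interval 0.014 to 0.70; limma adjusted p = 0.967) and Ifitm3 at 0.28 (adjusted p = 0.967). Without control 3 the DCAC differences were -0.43 in Rsad2, -0.42 in Irgm1, -0.37 in Usp18 and -0.32 in Irf9. Without control 1 they were -1.60 in Rsad2 and 0.14 in Ifitm3, whose value without DCAC 3 was 0.18. Zbp1 had the lowest fitted difference of any member, -1.33, but its groups overlapped. Over all 9 arrays, with control 2 among the controls, 3 members had an unadjusted p under 0.05 (5.31% of probe sets did), the members' median was 0.15, and Irgm1 stood at -0.55, Rsad2 at -1.22 and Irf1 at 0.63.

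No member passed the threshold between DCAA and the 2 liver controls either. In the limma fit 0 of 36 members passed, with 0.0815% of all probe sets passing, and 11 members had an unadjusted p under 0.05, against 12.6% of probe sets. The median member differed by -0.20 (0.085 over all genes), with 24 of 39 below 0 (61.5%, against 42.2%). Here the dim Ifit2 and Mx2 count as above 0, which again carries no order. All 3 DCAA livers lay below both controls for 9 members (23.1%, against 12.2% of all genes) and above both for 5 (12.8%, against 14.0%). Without control 3 the members' median was 0.086, and without control 1 it was -0.52.

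Irgm2 had the smallest adjusted p of the members, with a log2 difference of -1.33 (SE 0.29, 95% interval -1.96 to -0.70; limma adjusted p = 0.15), with an unadjusted p of 0.000592. Ifit3 stood at -1.55 (SE 0.53, 95% interval -2.70 to -0.40; limma adjusted p = 0.268), Cmpk2 at -1.12 (adjusted p = 0.281) and Tap1 at -0.96 (adjusted p = 0.212). Igtp at -0.76, Usp18 at -0.76, Bst2, Oasl2 and Ifih1 completed the 9 members below both controls. Above both controls were Eif2ak2 at 0.68 (SE 0.31, 95% interval 0.0037 to 1.36; limma adjusted p = 0.395), Ifitm3 at 0.43 (adjusted p = 0.281), Irf1 at 0.41 (adjusted p = 0.323), Dhx58 at 0.37 (adjusted p = 0.571) and Stat2 at 0.26. Set beside these, the DCAC livers differed from the same controls by -0.32 in Irgm2, -0.31 in Ifit3, -0.11 in Tap1, -0.51 in Igtp, 0.29 in Eif2ak2 and -0.36 in Dhx58, and the DCAA livers by -0.79 in Rsad2, -0.48 in Irgm1, -0.18 in Irf7 and -0.20 in Irf9. For 3 of these members the value rests on the probe set read here: the mean over all probe sets gave -0.0022 for Tap1 in DCAA, 0.11 for Eif2ak2 and -0.38, the opposite sign, for Dhx58. The further Tap1 probe sets all failed the filter on dim probe sets, so the Tap1 mean includes dim values. For Stat2 a second probe set gave 0.013. Without control 3 the DCAA differences were -0.79 in Irgm2, -0.57 in Tap1, -0.47 in Usp18, -0.28 in Igtp and 1.12 in Eif2ak2. Without control 1 they were -1.24 in Igtp and 0.25 in Eif2ak2.

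All DCAA livers and DCAC 3 had the high 3'/5' ratio, so treatment and ratio are told apart only through DCAC 3. In a fit with the ratio class as a block, Irgm2 stood at -0.84, Tap1 at -0.92, Ifit3 at -1.27 and Cmpk2 at -0.24 for DCAA against control. With all 9 arrays 5 members had an unadjusted p under 0.05 (12.0% of probe sets did), and Irgm2 was -0.73, Tap1 -0.67, Igtp 0.018 and Eif2ak2 0.61.

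The compounds deliver the same acyl group at the same dose and time, and only 1 pair of compounds was compared. No member of 36 differed between them at an adjusted p under 0.05 in limma (0.00408% of all probe sets did), and 4 had an unadjusted p under 0.05, against 9.28% of probe sets. With all 9 arrays 2 members did, against 5.75% of probe sets. The median member differed by -0.081, beside -0.083 over all genes, and by 0.11 when every array was scaled to a common median. All DCAC livers lay above all DCAA livers for 3 members (7.69%, against 5.33% of all genes) and below for 3 (7.69%, against 6.51%).

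In log2 differences, higher with DCAC were Irgm2 at 1.01 (SE 0.26, 95% interval 0.45 to 1.57; limma adjusted p = 0.433), Tap1 at 0.85 (SE 0.25, 95% interval 0.31 to 1.39; limma adjusted p = 0.448) and Igtp at 0.25 (adjusted p = 0.698). Lower with DCAC were Dhx58 at -0.73 (SE 0.22, 95% interval -1.21 to -0.25; limma adjusted p = 0.449), Eif2ak2 at -0.40 (adjusted p = 0.647) and Stat2 at -0.13 (adjusted p = 0.835). The log2 differences between the compounds do not use the controls. Their SEs, intervals and p-values do, because all groups were fitted together and the spread between the controls enters the fit. The mean over all probe sets gave -0.034 for Tap1, -0.096 for Dhx58 and -0.16 for Eif2ak2, so these differences rest on the probe set read here. For Tap1 that mean includes further probe sets that all failed the filter on dim probe sets. For Stat2 a second probe set gave 0.0053. Without DCAC 1, Eif2ak2 stood at -0.26. The median member's interval spanned a factor of 1.46 on either side, and a p above the threshold does not show that the compounds act alike.

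The rest of the pathway held no call in any of the 3 comparisons. Of the interferon genes and the cytokines Il18 and Il12b, 9 of 12 listed were measured and 4 passed the filter: Ifna1 stood at 0.70 and Il18, a cytokine that induces interferon gamma, at 0.49 for DCAA against control, with all DCAA livers above both controls. These 2 of the 9 are 22.2%, against 14.0% of all genes, and 0 lay below both (0%, against 12.2%). With DCAC 0 of the 9 lay above both controls and 1 below (0% and 11.1%, against 9.79% and 9.98%). Among 14 measured receptors, kinases and regulators, Ifnar2, a chain of the type I receptor, was above both controls with DCAC (0.47) and with DCAA (0.47; limma adjusted p = 0.239). Of these 14, 1 lay above both controls and 0 below with DCAC (7.14% and 0%, against 9.79% and 9.98% of all genes). In the DCAA comparison 1 lay above and 2 below (7.14% and 14.3%, against 14.0% and 12.2%). Among 14 upstream sensors and adaptors, 1 lay above both controls and 3 below with DCAC (7.14% and 21.4%, against 9.79% and 9.98% of all genes). In the DCAA comparison 2 lay above and 1 below (14.3% and 7.14%, against 14.0% and 12.2%). Of these, the adaptor Sting1 was below both controls with DCAC (-0.67), and Irf3, the factor that starts interferon transcription, was above both with DCAC (0.23) and DCAA (0.31).

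MHC class I presentation moved with the members on control 3, which was highest for 8 of its 11 measured genes (72.7%, against 8.90% of all genes). Among them were H2-K1, H2-D1, Psmb8, Psmb9 and Nlrc5. With DCAA, H2-D1, a class I heavy chain, stood at -0.61 (limma adjusted p = 0.19) and the peptidase Erap1 at -0.43, all DCAA livers below both controls, while the chaperone Calr stood at 0.42, above both. Of the 11 genes, these 2 below both controls are 18.2%, against 12.2% of all genes, and the 1 above is 9.09%, against 14.0%. In the DCAC comparison 1 lay above and 1 below (9.09% each, against 9.79% and 9.98%). Over 9 arrays H2-D1 was 0.33 and Erap1 0.099. Of 36 further interferon-induced genes, 15 were highest on control 3 (41.7%, against 8.90% of all genes). Cxcl9, a chemokine of the interferon gamma response, had 514 on control 1 and 1589 on control 3. For DCAA against control Cxcl9 stood at -1.37 (limma adjusted p = 0.234), and over 9 arrays at -0.066. Cxcl10, a chemokine of the same list, ran the other way. It had 192 on control 1 and 376.5 on control 3, 418, 598 and 481 on DCAC 1 to 3 and 741, 1116 and 287 on DCAA 1 to 3. Its DCAC livers all lay above both controls, while DCAA 3 lay between the controls. All DCAA livers lay below both controls for 11 of these 36 genes (30.6%, against 12.2% of all genes) and above both for 2 (5.56%, against 14.0%). All DCAC livers lay below both for 8 (22.2%, against 9.98%) and above both for 2 (5.56%, against 9.79%).

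Most members were lower on control 2 than on the other controls. It lay below both other controls for 28 of the 39 (71.8%), against 32.3% of all genes. Summed over the members, the signal was 16007 there and between 48378 and 70586 elsewhere. Iigp1 was 446, Ifitm3 1608, Igtp 749 and Dhx58 18.2 there, each under the lowest of the other 8 arrays. Rsad2 at 1298 and Cmpk2 at 809.7 were instead above both other controls.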

How the data were processed

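RNA of 9 mice, labelled as liver for each of them, was hybridised to 9 Affymetrix arrays. The intensity values (linear signals per probe set) were deposited by the authors, made with GCOS per the submitters' processing notes. The GCOS version is not given in the sources used here. Their 2% trimmed mean is 500.0 on each array, which fixes the scale but not the share of any cell type. Controls of the manufacturer were left out. Each array's signals were floored at its 25th percentile and logged. A probe set was kept if 3 or more arrays exceeded their own median (24531 of 45037). Then limma 3.58.1 in R 4.3.3 (lmFit, eBayes with trend) fitted all groups in 1 model of 8 arrays, with Benjamini-Hochberg adjustment at 0.05. The scripts were tested on simulated data in which 200 of 24531 probe sets were changed. Of 2-fold changes against control, 11.5% were called for DCAC and 8% for DCAA. Of 4-fold changes 68% and 64% were called, so an absent call does not show an absent change. Arrays were said not to overlap, or to be highest, after raising signals to a common floor of 67.3. No arrays were identical. P-values measure the spread between mice.

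Members and lists were chosen with earlier results of these data known. Members named with all values were those whose groups did not overlap (at most 4 per direction and comparison, by size, among those past the filter), the brightest of each role, and Stat2, Irf9, Isg15, Irf7 and Irf1. Rtp4, Gbp2, Gbp3, Oas1a, Bst2 and the shared Tgtp1 probe set were named after their values were seen. Replicate numbers of the labels do not pair mice: deviations correlated at -0.04 to 0.03 over 7 same-numbered pairs and -0.07 to 0.07 over 14 others.

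Alternatives tried were 2 other scalings, no floor (with and without an offset of 32), other filters, other probe set rules, other eBayes settings, array weights, a replicate block, a block for the 3'/5' ratio class, all 9 arrays and leaving out each array.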

Additional observations from a re-analysis of the deposited data

Results flagged for a closer look

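Control 2, which the comparisons leave out, was above both other controls for 5 members that are dim or of middling signal in the other livers. Rsad2 was at a signal of 1298 and Cmpk2 at 809.7 on this array. Irf8 was at 627.8, Oasl1 at 364.1 and Ifit2 at 143.2, the last being a gene that lay under the 25th percentile of the array on all of the other 8. Kidney tubule markers were high and hepatocyte markers low on the same array, and their part in these values was not tested.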

How the results depend on the processing

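No interferon response gene passed the threshold in any of the 3 comparisons under any of the 23 alternatives, and control 3 was the highest array for 22 to 26 of the 39 under those that allow the count. The differences of 36 named gene results kept their sign in all but 20 of 828 recomputed values. Many of these values could not change. The other filters, 1 probe set per gene in the fit, the other eBayes settings and a fit of only the groups compared leave a difference as it is. So does leaving out an array of a group that is not compared. Over all probe sets, the counts of calls for DCAC, DCAA and their difference (8, 20 and 1) were 1, 4 and 0 without the filter, 0, 0 and 0 without the trend, 2, 0 and 3 with a block for the ratio class, and 0, 0 and 0 with all 9 arrays. Array weights gave 30 for DCAC and 141 for DCAA, robust eBayes 1 for DCAC, a common median 9 for DCAA and 0 for DCAC against DCAA, and a fit of only the groups compared 2 for DCAC against DCAA. Leaving out 1 array gave 2 to 14, 3 to 87 and 0 to 2 calls; the extremes of the first 2 came without DCAC 3 (2) and DCAA 1 (14), and without DCAA 3 (3) and DCAA 1 (87).

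The members' median was 0.15 (DCAC) and 0.12 (DCAA) with all 9 arrays, -0.045 for DCAA with the ratio block, 0.11 for DCAC against DCAA with a common median, and -0.48 to 0.0054 for DCAC and -0.52 to 0.086 for DCAA when 1 array was left out, the ends being without control 1 and without control 3. With the replicate block the medians were -0.20, -0.20 and -0.081. No pairing by these numbers was seen, and no member's call changed.

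Signs turned with all 9 arrays for DCAC in Dhx58 (0.50), Irgm2 (0.28), Tap1 (0.18) and Igtp (0.27), and for DCAA in Igtp (0.018), Irf9 (0.12) and Irf7 (0.11). The ratio block turned Irf9 (0.55) and Irf7 (0.057) for DCAA. The mean of all probe sets turned Eif2ak2 for DCAC (-0.050), Dhx58 for DCAA (-0.38) and Tap1 for DCAC against DCAA (-0.034), and the common median turned Stat2 for DCAC against DCAA (0.057). With 1 array left out, DCAC against control spanned -0.15 to 0.72 for Eif2ak2, -0.64 to 0.014 for Ifit3, -0.86 to 0.22 for Irgm2, -0.51 to 0.28 for Tap1 and -0.0058 to 0.27 for Stat2, and DCAA against control spanned -0.53 to 0.13 for Irf9 and -0.55 to 0.19 for Irf7. The turns came without control 3, except for Eif2ak2, where control 1 was left out. Igtp, whose sign held, spanned -0.99 to -0.031 for DCAC, the end near 0 being without control 3. The causes were not tested. The comparisons rest on 3 livers against 2, with intervals that differ between members, and dim genes such as Ifit2 and Mx2 carry no order.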
